A study of Mus musculus with 27 samples.

Results

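Endothelial cells and resident macrophages were followed through 10 marker genes, chosen by symbol from the 21850 rows of the expression table and not by their values. Stab2, Kdr, Clec4g, Pecam1 and Cdh5 are markers of endothelium, and Clec4f, Cd5l, Vsig4, Ptprc and Adgre1 are markers of Kupffer cells and other leukocytes. All 10 symbols were found, and each matched 1 row. Polyadenylated RNA had been sequenced by the SMARTseq2 protocol in 27 titled mouse liver libraries that form 9 groups of 3. Freshly isolated hepatocytes were the starting material. Hepatocyte organoids (HepOrgs), cultures grown in Matrigel from these cells, were sampled at passage 2 after 1 week (7 days) or 2 weeks (14 days) in HM-Wnt or in MM. HM-Wnt is an expansion medium with growth factors, a glycogen synthase kinase inhibitor, a transforming growth factor-β receptor inhibitor and Wnt conditioned medium. MM is a minimal medium with Wnt conditioned medium and a ROCK inhibitor. Periportal assembloids joined 10 HepOrgs, 1000 cholangiocytes and either 250 (homeostasis) or 2500 (fibrosis-like) portal mesenchymal cells per well, and were sampled in MM after 1 week (7 days) or 2.5 weeks (18 days). All libraries were labelled C57BL/6 and WT except fresh hepatocytes replicate 3, which is WT in its title and MDR2-het in its genotype label. No label gives an age, a donor or a separate culture, so every p-value below measures the spread between libraries, which may be technical.

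The origin of the cells is given as background, and its part in the marker levels was not tested. Primary hepatocytes were isolated from digested liver and were not sorted. Cholangiocyte organoids and mesenchymal cells were picked out of early HepOrg cultures by hand. The cholangiocytes and the mesenchyme added to assembloids had been sorted as CD31-, CD45- and CD11b- cells. CD31 is the product of Pecam1 and CD45 that of Ptprc, so 2 of the 10 markers were used to exclude cells from the added fractions.

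In the liver, sinusoidal endothelial cells form a fenestrated lining between blood and hepatocytes and clear macromolecules through scavenger receptors. Kupffer cells are the resident macrophages of the sinusoids. Their identity depends on signals from the neighbouring endothelial cells, stellate cells and hepatocytes. Stab2 encodes a scavenger receptor for hyaluronan, Kdr a receptor for vascular endothelial growth factor and Clec4g a C-type lectin of sinusoidal endothelium. Pecam1 and Cdh5 (VE-cadherin) encode adhesion molecules of endothelial junctions. Clec4f encodes a C-type lectin of mouse Kupffer cells, Cd5l a secreted scavenger protein of tissue macrophages, Vsig4 a complement receptor, Ptprc the phosphatase CD45 found on nearly all leukocytes and Adgre1 a surface receptor of mouse macrophages. All are protein-coding genes. In GRCm39 (GENCODE M39) the endothelial markers lie at chr10:86675054-86843889 (Stab2), chr5:76093487-76139884 (Kdr), chr8:3757064-3770671 (Clec4g), chr11:106543689-106641454 (Pecam1) and chr8:104828231-104871143 (Cdh5). The Kupffer markers lie at chr6:83621524-83633169 (Clec4f), chr3:87265182-87278380 (Cd5l), chrX:95290807-95337044 (Vsig4), chr1:137990599-138103446 (Ptprc) and chr17:57665573-57790527 (Adgre1).

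Library depth ranged from 30289364 to 65348596 counts (median 43727965). In the fresh libraries, 8 hepatocyte markers summed to between 61390 and 93660 normalised CPM (counts-per-million, scaled by library size and TMM factors). Among cultured libraries, homeostasis assembloid 1 week replicate 2 stood apart, with 908 CPM of hepatocyte markers against 27250 and 15330 in replicates 1 and 3. Fibrosis-like assembloid 1 week replicate 3 was low in hepatocyte markers (1644 CPM, against 10350 and 14790 in replicates 1 and 2) and in mesenchymal markers (315.7 CPM, against 2721 and 6613). MM HepOrg 2 weeks replicate 3 stood apart in macrophage genes, described below.

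Promoter sequences are shown for 3 markers that differed in culture: Clec4f was at 0 counts throughout, and Clec4g was at 0 in most cultures where Stab2 was still counted. Each is the 250 bases before the annotated start in GRCm39 (GENCODE M39), written 5′ to 3′ on the gene's strand: chr6:83633170-83633419 for Clec4f (minus strand), chr8:3770672-3770921 for Clec4g (minus) and chr10:86843890-86844139 for Stab2 (minus). Capitals mark GAGGAA, the core of the box read by the macrophage factor PU.1, or AGGAAG, a box of the wider ETS family, on either strand; the 2 motifs can overlap.
Clec4f: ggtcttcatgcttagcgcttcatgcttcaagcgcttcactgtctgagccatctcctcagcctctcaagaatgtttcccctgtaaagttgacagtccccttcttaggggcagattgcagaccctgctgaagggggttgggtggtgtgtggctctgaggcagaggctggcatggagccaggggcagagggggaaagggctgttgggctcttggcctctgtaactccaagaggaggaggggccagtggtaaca
Clec4g: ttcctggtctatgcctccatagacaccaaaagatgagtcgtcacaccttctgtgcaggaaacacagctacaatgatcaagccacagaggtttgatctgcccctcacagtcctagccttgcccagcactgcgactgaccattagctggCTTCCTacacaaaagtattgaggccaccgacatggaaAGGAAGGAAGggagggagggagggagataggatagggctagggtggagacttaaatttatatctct
Stab2: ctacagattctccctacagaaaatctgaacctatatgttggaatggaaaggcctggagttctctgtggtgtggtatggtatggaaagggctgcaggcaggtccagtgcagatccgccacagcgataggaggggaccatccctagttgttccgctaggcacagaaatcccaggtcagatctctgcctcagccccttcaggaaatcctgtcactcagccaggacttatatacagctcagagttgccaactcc
The Clec4g window held 3 matches to AGGAAG, whereas neither motif was present in the Clec4f or Stab2 windows. Over 21616 promoters of this length, 22.951% held GAGGAA, 28.877% held AGGAAG and 38.772% held at least 1 of them. These letters describe the windows and no more.

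All 10 markers were detected in each of the fresh hepatocyte libraries. Stab2 had 331, 914 and 1132 counts in replicates 1, 2 and 3, Kdr 383, 1081 and 1179, and Clec4g 517, 1547 and 2079. Pecam1 had 106, 323 and 328 counts and Cdh5 84, 221 and 215. After normalisation the endothelial markers averaged 27.8 ± 16.6 CPM for Stab2, 31.1 ± 19.0 for Kdr, 48.3 ± 30.0 for Clec4g, 8.98 ± 5.72 for Pecam1 and 6.15 ± 3.73 for Cdh5 (mean ± SD, n = 3). Replicate 1 was the lowest for each of these genes, and replicates 2 and 3 were closer to each other.

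Kupffer and leukocyte markers were also present in the fresh libraries and differed more between them. Clec4f had 697, 2990 and 2465 counts in replicates 1, 2 and 3, and Cd5l had 435, 2773 and 1277. Vsig4 had 157, 890 and 442 counts, Ptprc 25, 162 and 69, and Adgre1 58, 743 and 159. Replicate 2 was the highest and replicate 1 the lowest for every Kupffer marker. The means were 74.8 ± 56.2 CPM for Clec4f, 57.3 ± 57.2 for Cd5l, 18.9 ± 18.0 for Vsig4, 3.29 ± 3.37 for Ptprc and 12.97 ± 17.01 for Adgre1 (mean ± SD, n = 3). For Cd5l, Vsig4, Ptprc and Adgre1 the SD was therefore about as large as the mean or larger.

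Replicate 2 set the classes apart among the fresh libraries, whereas replicates 1 and 3 differed by similar factors in both. In replicate 3 the endothelial markers were 2.93-fold to 4.6-fold higher than in replicate 1, and the Kupffer markers 3.13-fold to 4.04-fold. In CPM, the endothelial markers were 4.32-fold to 5.01-fold higher in replicate 2 than in replicate 1, and the Kupffer markers between 7.05-fold (Clec4f) and 21.0-fold (Adgre1). Against replicate 3, replicate 2 was 1.07-fold to 1.48-fold higher for the endothelial markers, 1.74-fold for Clec4f and 6.72-fold for Adgre1. Summed over the 5 genes of each class, Kupffer over endothelial CPM was 0.966 in replicate 1, 1.85 in replicate 2 and 0.894 in replicate 3. Replicate 2 also had the highest summed CPM of cholangiocyte markers (142.8, against 11.6 and 30.7 in replicates 1 and 3) and of mesenchymal markers (154.4, against 22.1 and 101.2). The part of these cells in the marker levels was not tested.

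To order the genes by level in fresh hepatocytes, values per length were used, in the deposited transcripts-per-million (TPM), whose length is close to the whole gene span. Clec4f was highest at 28.4 ± 20.0 TPM, followed by Cd5l (18.9 ± 17.9), Clec4g (15.9 ± 9.68) and Kdr (3.04 ± 1.76). Lower levels were found for Vsig4 (1.78 ± 1.60 TPM), Stab2 (0.745 ± 0.431), Cdh5 (0.639 ± 0.360), Adgre1 (0.446 ± 0.568), Pecam1 (0.415 ± 0.249) and Ptprc (0.127 ± 0.123). Among neighbours in this order, the ranges of the 3 libraries were separate only for Clec4g and Kdr. Scaled instead by exonic length, Cd5l (28.1 CPM per kb) came before Clec4f (20.2), Vsig4 (12.7) moved above Clec4g (10.2), Ptprc was again last (0.175), and all neighbours overlapped. Whether the counts include reads outside exons was not tested, so neither scale is known to match them.

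**Figure D1:**
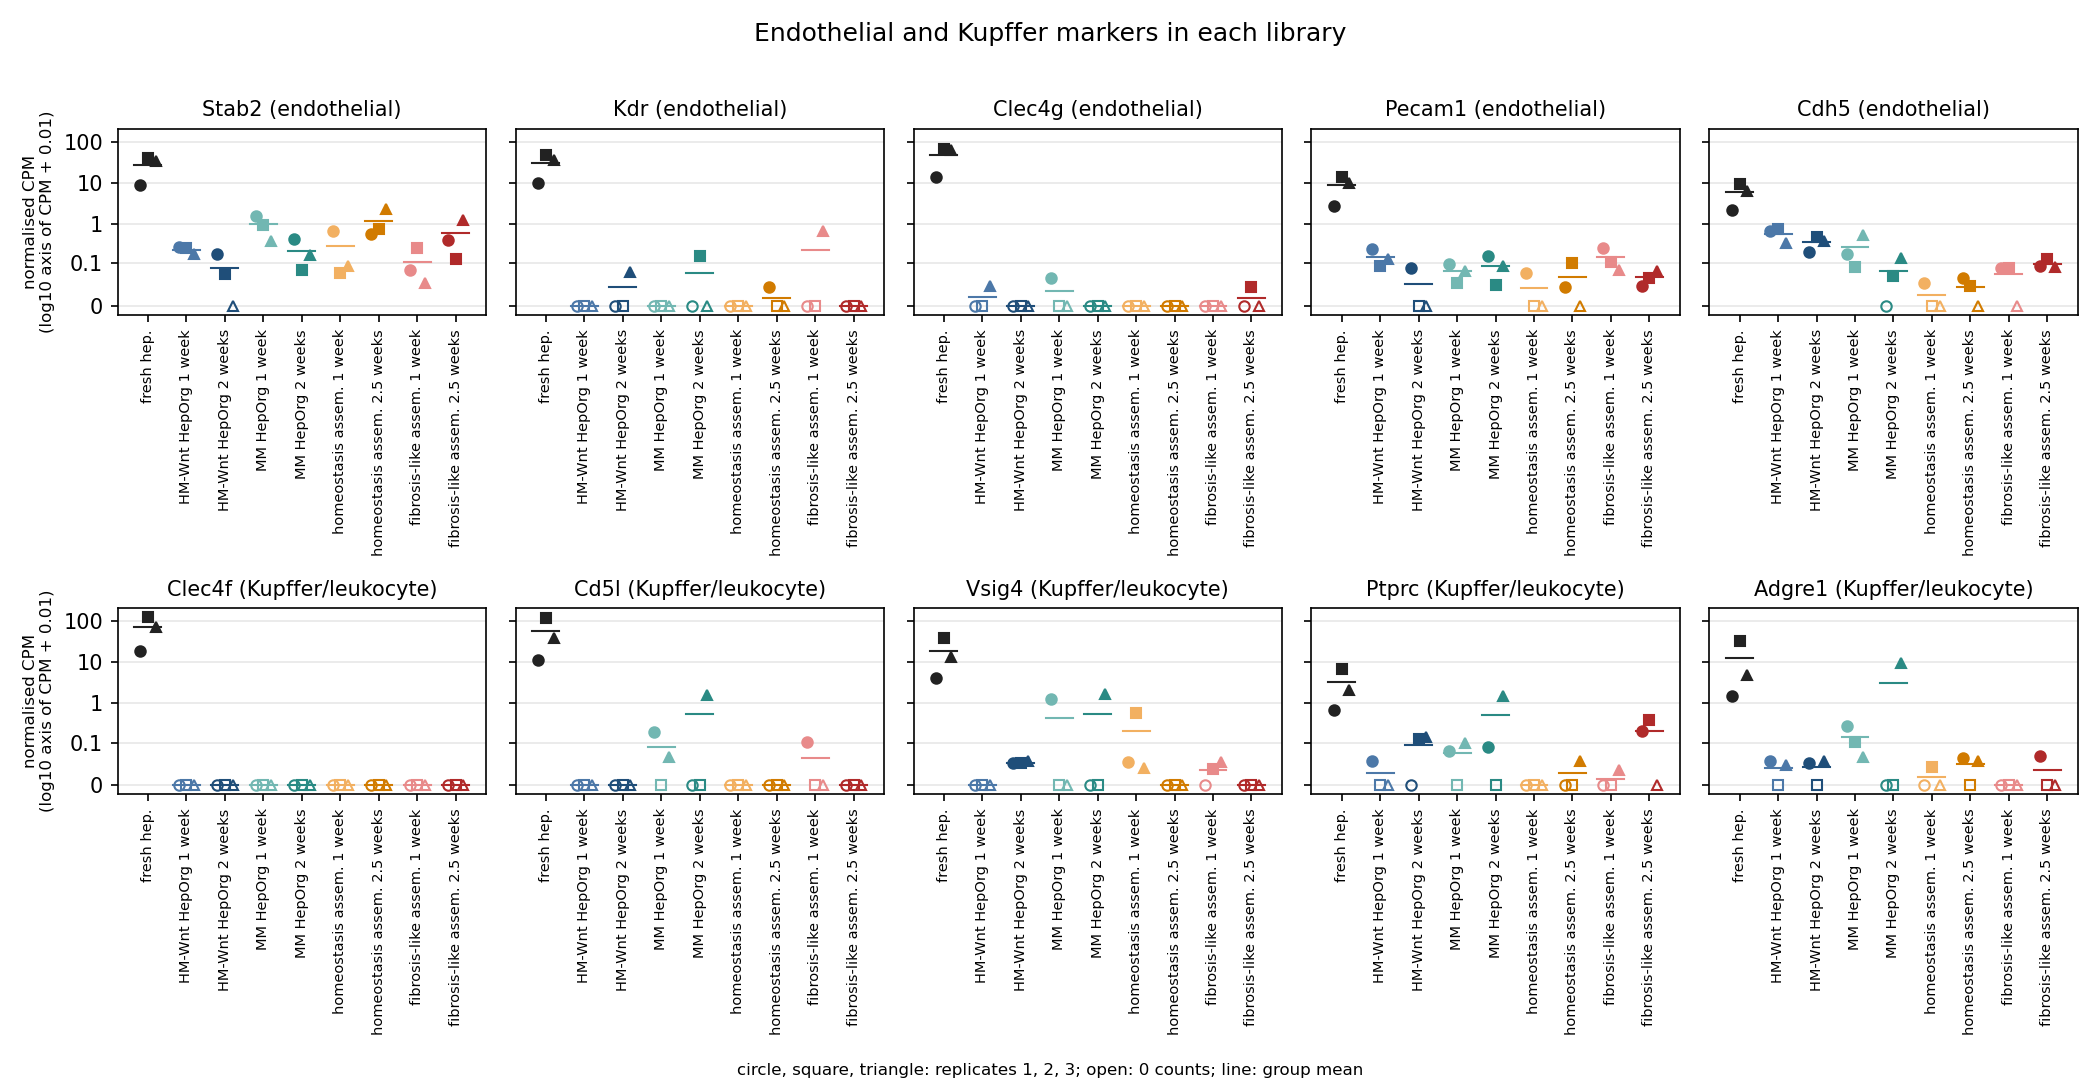
Normalised CPM of each marker (y axis, log10 of CPM + 0.01) in the 27 libraries, by group (x axis). Symbols give replicates 1 to 3, open symbols are 0 counts and lines are group means. All markers are highest in fresh hepatocytes on average, Clec4f is at 0 in all 24 cultured libraries, and MM HepOrg 2 weeks replicate 3 reaches the fresh range for Ptprc and Adgre1.

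The first comparison asked which markers of non-parenchymal cells were still present once hepatocytes had been grown as organoids. In HM-Wnt HepOrgs all 10 markers were lower than in fresh hepatocytes at 1 week and at 2 weeks (edgeR quasi-likelihood test, Benjamini-Hochberg adjusted p under 0.05). Of the 13405 genes tested, 24.8% were lower and 24.9% higher at 1 week, and 25.7% were lower and 26.1% higher at 2 weeks. No marker was higher. The markers passed the filter on low counts mainly through the fresh libraries and had to differ, so the count of 10 describes them and is not evidence of its own. In these bulk libraries fewer cells of a type and less RNA per cell cannot be told apart. All 8 comparisons with fresh hepatocytes used the same 3 fresh libraries.

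Endothelial markers fell to different depths in HM-Wnt. Stab2 had 9, 6 and 8 counts at 1 week and 7, 2 and 0 at 2 weeks, a log2 fold change against fresh hepatocytes of -6.68 ± 0.84 (SE, adjusted p = 3.33e-05) and -7.77 ± 0.88 (1.25e-05). Cdh5 kept more, with 23, 17 and 16 counts at 1 week (-3.35 ± 0.76, adjusted p = 0.00276) and 8, 19 and 13 at 2 weeks (-3.98 ± 0.78, 0.000904). Neither gene's counts overlapped those of the fresh libraries. The junction gene Pecam1 had 8, 2 and 6 counts at 1 week (-5.50 ± 0.81, adjusted p = 0.000109) and 3, 0 and 0 at 2 weeks. Kdr was at 0 in every HM-Wnt library but 1, which had 2 counts, and Clec4g likewise in every library but 1, with 1 count. Against a floor of 3 counts over the group, fresh hepatocytes held at least 982.3-fold more Kdr than HM-Wnt HepOrgs at 1 week and at least 1699-fold more Clec4g than at 2 weeks. Here and below, such bounds pool the fresh libraries and cover counting error only, not the spread between those libraries.

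Kupffer markers were close to absent in HM-Wnt. Clec4f and Cd5l had 0 counts in all 6 libraries, so fresh hepatocytes held at least 2287-fold more Clec4f at 1 week and at least 2523-fold more at 2 weeks. The corresponding bounds for Cd5l were 1667-fold and 1839-fold. Vsig4 was at 0 at 1 week and had 1 count in each library at 2 weeks. Adgre1 had 1, 0 and 1 counts at both times. Ptprc had 1, 0 and 0 counts at 1 week and 0, 5 and 5 at 2 weeks, the smallest fall of the Kupffer group there (-4.58 ± 1.39, adjusted p = 0.0141). Without fresh hepatocytes replicate 2, Ptprc at 2 weeks no longer passed (adjusted p = 0.0536) and 9 of 10 markers did.

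In MM HepOrgs all 10 markers were lower at 1 week (21.3% of genes lower, 21.5% higher), but 8 at 2 weeks (20% lower, 19.7% higher). Stab2 had 82, 35 and 19 counts at 1 week, a fall of 4.77 ± 0.75 on the log2 scale (adjusted p = 0.000262), and 16, 3 and 6 at 2 weeks (-6.69 ± 0.84, 4.46e-05). Cdh5 had 9, 3 and 26 counts at 1 week (-4.32 ± 0.79, adjusted p = 0.000777) and 0, 2 and 5 at 2 weeks (-5.78 ± 0.84, 0.000158). Pecam1 stayed at 1 to 6 counts in all 6 libraries. Kdr was at 0 in 5 of them, with 7 counts in MM HepOrg 2 weeks replicate 2, and Clec4g had 2 counts in MM HepOrg 1 week replicate 1 and 0 in the others.

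Clec4f again had 0 counts in all MM HepOrg libraries, at least 3034-fold below fresh hepatocytes at 1 week and at least 2598-fold at 2 weeks. The other Kupffer markers were held mainly by 1 library at each time. At 1 week, replicate 1 had 66 counts of Vsig4, 14 of Adgre1 and 10 of Cd5l, whereas replicates 2 and 3 had 0 and 0, 4 and 2, and 0 and 2. The falls of Vsig4 (-5.26 ± 1.73, adjusted p = 0.0298) and Adgre1 (-6.07 ± 1.82, 0.0166) did not pass without MM HepOrg 1 week replicate 2, without replicate 3 or without fresh hepatocytes replicate 2, each of which left 8 markers. At 2 weeks the falls of Ptprc (-2.56 ± 1.30, adjusted p = 0.136) and Adgre1 (-2.04 ± 1.52, 0.308) did not pass, and their ranges overlapped those of fresh hepatocytes. Without replicate 3 both passed (Ptprc -5.17, adjusted p = 0.00956; Adgre1 -7.94, 0.00132) and the count was 10. Vsig4 (-5.03 ± 1.73, adjusted p = 0.0371) was no longer called without MM replicate 1, MM replicate 2, fresh replicate 2 or fresh replicate 3, each of which left 7.

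**Figure D2:**
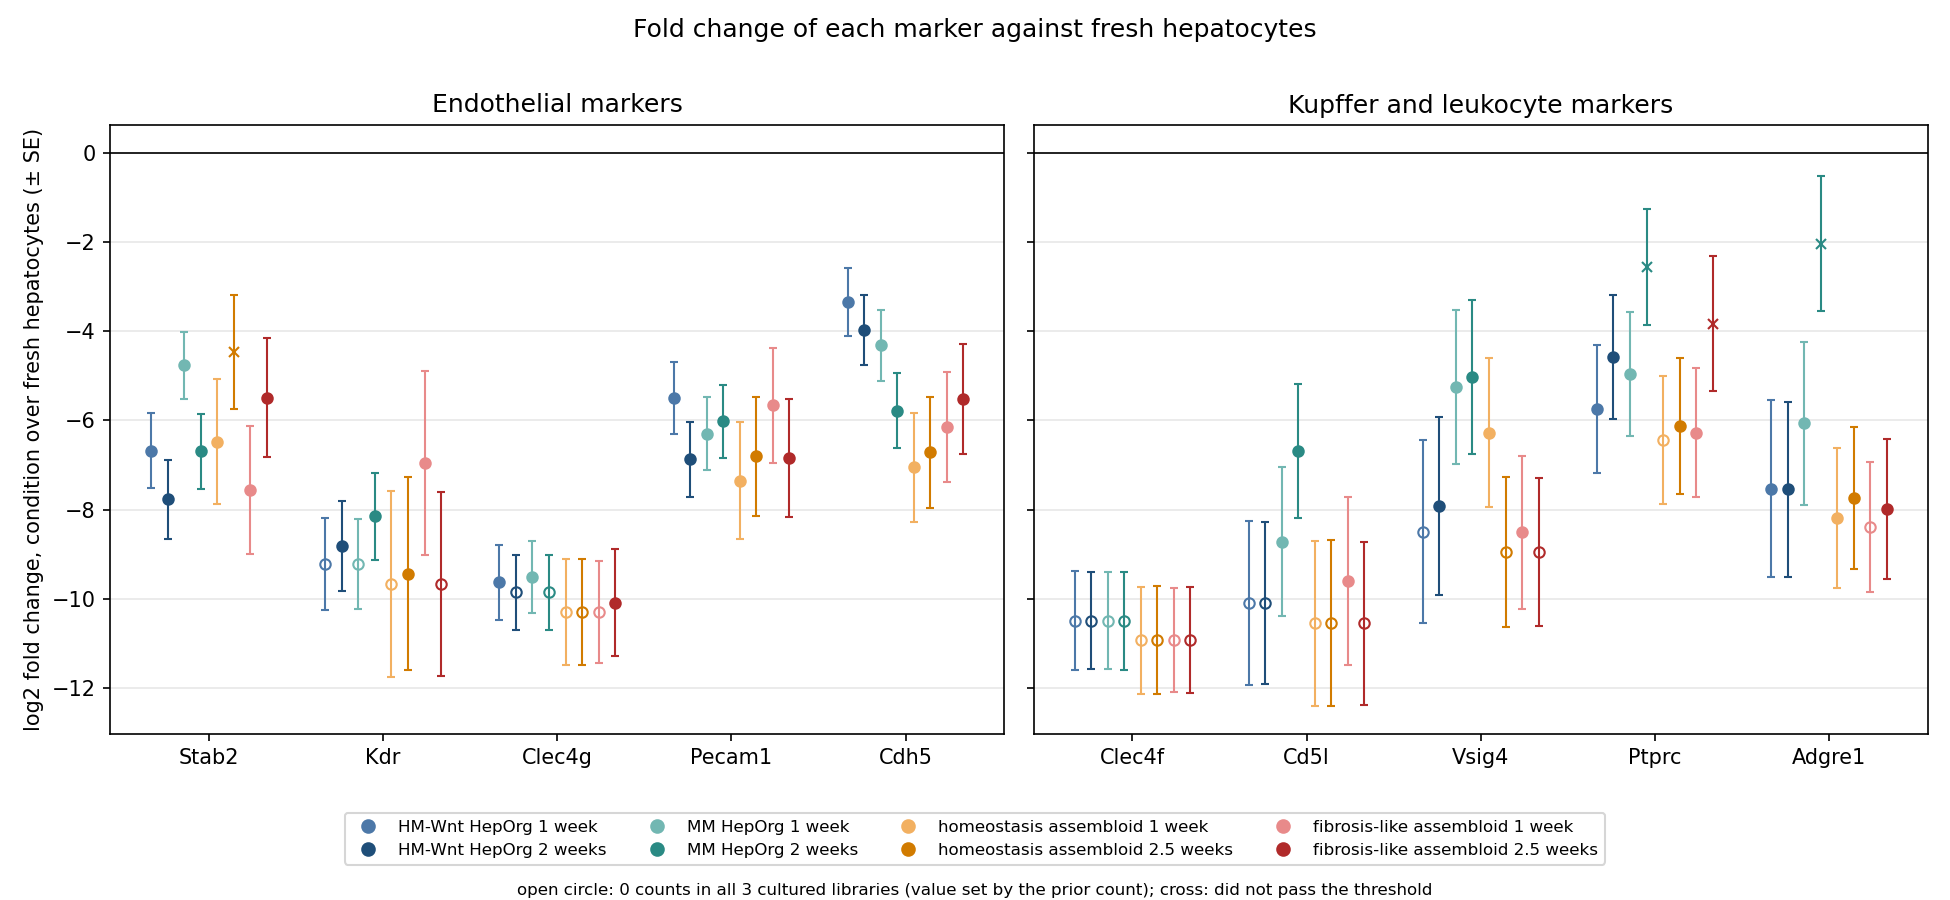
Log2 fold change of each marker (y axis, ± SE) in each cultured group against fresh hepatocytes, from edgeR. Open circles mark groups with 0 counts in all 3 libraries, whose value is set by the prior count, and crosses mark values that did not pass, which are Stab2 in homeostasis assembloids at 2.5 weeks, Ptprc in MM HepOrgs at 2 weeks and fibrosis-like assembloids at 2.5 weeks, and Adgre1 in MM HepOrgs at 2 weeks. All values lie below 0.

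MM HepOrg 2 weeks replicate 3 carried a macrophage signal without the defining Kupffer lectin. The 5 Kupffer markers summed to 507 counts (14.33 CPM) in it, against 0.0778 and 0 CPM in replicates 1 and 2. Adgre1 had 340 counts, 74.1% of the fresh mean, and Ptprc 53 counts, 45.6%. Both lay within the range of the fresh libraries. Vsig4 had 58 counts (8.70% of the fresh mean) and Cd5l 56 (2.76%). Clec4f and Timd4, a phosphatidylserine receptor of resident macrophages, had 0 counts.

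General macrophage genes were high in that library as well. Of 21 further macrophage genes, 16 were highest in replicate 3, 10 exceeded both other replicates by more than 10 times, and 13 lay within the fresh range. The complement genes C1qa, C1qb and C1qc had 878, 1485 and 1024 counts, or 122%, 106% and 96.2% of the fresh mean. Lyz2, the lysozyme of myeloid cells, had 24855 counts (702.6 CPM, 1590% of the fresh mean), against 0.0259 and 10.5 CPM in replicates 1 and 2. Csf1r, the receptor for macrophage colony-stimulating factor, had 278 counts (17.6%), and Spi1, which encodes PU.1, had 110 (66.6%). The sum of the 5 endothelial markers was not raised, at 14 counts in replicate 3 against 22 and 13 in replicates 1 and 2. The companion list of 22 other endothelial genes, described below, was higher in replicate 3, at 71.9 CPM against 22.9 and 23.6, with Esam at 22.9 CPM (7.10 and 3.62 in replicates 1 and 2) and Mrc1, which macrophages also express, at 18.1 (0.0518 and 0.588). Summed mesenchymal markers were higher in it as well, at 212.9 CPM against 80.7 and 80.4. The part of mesenchymal cells was not tested. This contrast within 1 group is a description of single libraries and was not tested.

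A weaker form of the pattern was present in MM HepOrg 1 week replicate 1. Lyz2 had 2108 counts there (92.4% of the fresh mean), C1qb 234 (11.5%), Laptm5, a lysosomal membrane protein of blood cells, 118 (25.8%) and Vsig4 66 (6.79%), whereas Clec4f and Timd4 were at 0. Adgre1 was at 2.10% of the fresh mean and Ptprc at 1.77%. The order of the genes therefore differed from that at 2 weeks, with Vsig4 above Adgre1. Summed mesenchymal markers were again highest in the same library (271.1 CPM, against 107.1 and 111.8 in replicates 2 and 3), and their part was not tested.

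**Figure D3:**
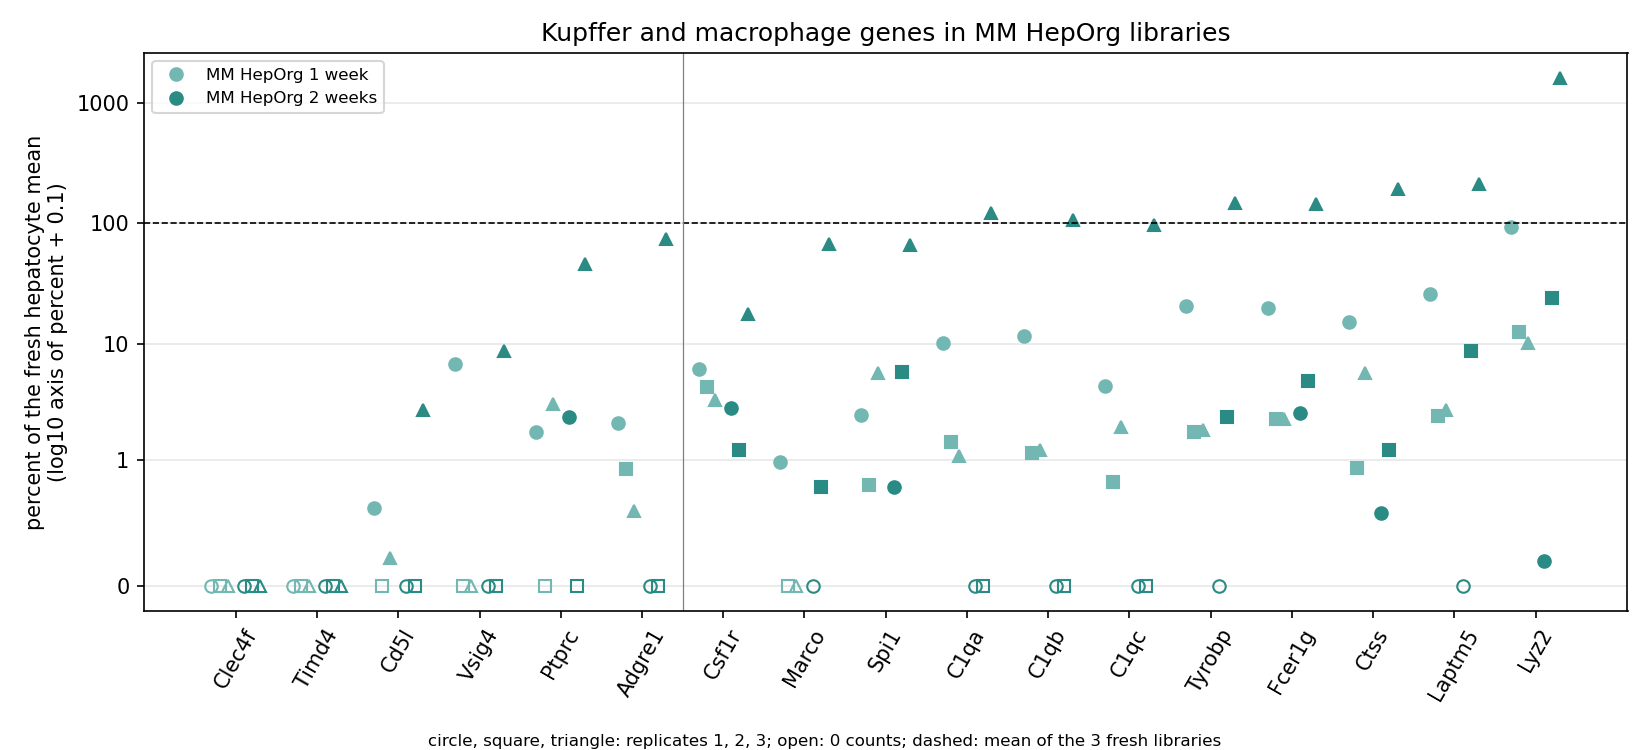
Level of Kupffer markers and further macrophage genes in the 6 MM HepOrg libraries, as a percentage of the fresh hepatocyte mean (y axis, log10 of percent + 0.1). Symbols give replicates 1 to 3 and open symbols are 0 counts. Replicate 3 at 2 weeks is at 0 for Clec4f and Timd4, at 74.1% for Adgre1 and above 100% for C1qa, C1qb, Tyrobp, Fcer1g, Ctss, Laptm5 and Lyz2.

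In assembloids at 1 week, all 10 markers were lower than in fresh hepatocytes in homeostasis (3.84% of 14489 genes lower, 8.11% higher) and in fibrosis-like assembloids (7.42% lower, 11.4% higher). At 2.5 weeks 9 markers were lower in each type, against 1.78% of genes lower and 2.92% higher in homeostasis, and 3.9% lower and 8.12% higher in fibrosis-like assembloids. No marker was higher in any assembloid group. The markers that did not pass were Stab2 in homeostasis (-4.47 ± 1.28, adjusted p = 0.0678) and Ptprc in fibrosis-like assembloids (-3.83 ± 1.51, adjusted p = 0.131). These fits share a spread that includes homeostasis assembloid 1 week replicate 2. With that library left out, an alternative chosen after seeing the data, all 10 markers were lower in each of the 4 assembloid groups. The counts depended on which libraries were fitted, and the number of genes called did as well. With only its own and the fresh libraries in the fit, homeostasis at 1 week had 0 markers called and 0 genes, against 1731 genes in the main fit. The share of all genes in the refits without a library is not given here, so their marker counts are descriptive. With all groups in the fit it had 6 markers without fresh replicate 2 and 5 without fresh replicate 3. Homeostasis at 2.5 weeks kept 3 without either of these, 1, 2 and 1 without its own replicates 1, 2 and 3, and 6 without fresh replicate 1. Fibrosis-like assembloids at 2.5 weeks kept 4 without their replicate 2, 6 without their replicate 1 and 5 without fresh replicate 3.

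Stab2 was the marker most often seen in assembloids. In homeostasis assembloids it had 25, 3 and 5 counts at 1 week and 30, 37 and 77 at 2.5 weeks. In fibrosis-like assembloids it had 6, 16 and 2 counts at 1 week and 19, 7 and 77 at 2.5 weeks. All of these lay below the fresh range. Stab2 fell by 6.48 ± 1.40 on the log2 scale in homeostasis assembloids at 1 week (adjusted p = 0.0133), by 7.56 ± 1.44 in fibrosis-like assembloids at 1 week (0.00472) and by 5.49 ± 1.34 in fibrosis-like assembloids at 2.5 weeks (0.0215). The last call was lost without fresh replicate 2 or 3, or without fibrosis-like replicate 1 or 2.

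The junction genes were near the limit of counting. Cdh5 had 1, 0 and 0 counts in homeostasis assembloids at 1 week and 2, 1 and 0 at 2.5 weeks, against 7, 5 and 0 and then 4, 7 and 5 in fibrosis-like assembloids. Pecam1 had 2, 0 and 0 and then 1, 5 and 0 counts in homeostasis, and 24, 7 and 5 and then 1, 2 and 4 in fibrosis-like assembloids. No value of either gene reached the fresh range. Clec4g had 1 count in all 12 assembloid libraries together. Kdr had 1 count in homeostasis at 2.5 weeks and 48 in fibrosis-like assembloid 1 week replicate 3, the library low in hepatocyte and mesenchymal markers, with 0 in the other 10, and its fall in that group (-6.96 ± 2.06, adjusted p = 0.0479) was lost without any 1 of the fresh libraries and without fibrosis-like replicate 1 or 2.

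Among Kupffer markers, Clec4f had 0 counts in all 12 assembloid libraries, at least 2977-fold to at least 5078-fold below fresh hepatocytes over the 4 groups. Cd5l had 10 counts in fibrosis-like assembloid 1 week replicate 1 and 0 elsewhere. Vsig4 had 30 counts in homeostasis assembloid 1 week replicate 2 and at most 2 in any other assembloid library. Its fall in that group (-6.28 ± 1.67, adjusted p = 0.0448) was not called without homeostasis replicate 1 or 3, or without any of the fresh libraries. Ptprc had 10, 21 and 0 counts in fibrosis-like assembloids at 2.5 weeks and at most 1 in each other assembloid library. Adgre1 had at most 2 counts in each.

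Over the 24 cultured libraries, Clec4f had 0 counts in all, and the pooled fresh level was at least 25410-fold above a floor of 3 counts over all of them. Single fresh libraries ranged from 18.56 to 130.9 CPM of Clec4f, a spread that this bound leaves out. Clec4g was at 0 in 21 libraries, Kdr and Cd5l in 20, Vsig4 in 14, Ptprc in 13, Adgre1 in 12, Pecam1 and Cdh5 in 5 and Stab2 in 1. Summed, the 5 endothelial markers ranged from 0.0560 to 2.30 CPM (median 0.604) and the 5 Kupffer markers from 0 to 14.3 CPM (median 0.0590). Without MM HepOrg 2 weeks replicate 3 the highest Kupffer sum was 1.80 CPM. The fresh sums were 37.8, 178.8 and 150.2 CPM for endothelial and 36.5, 330.8 and 134.3 for Kupffer markers.

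**Figure D4:**
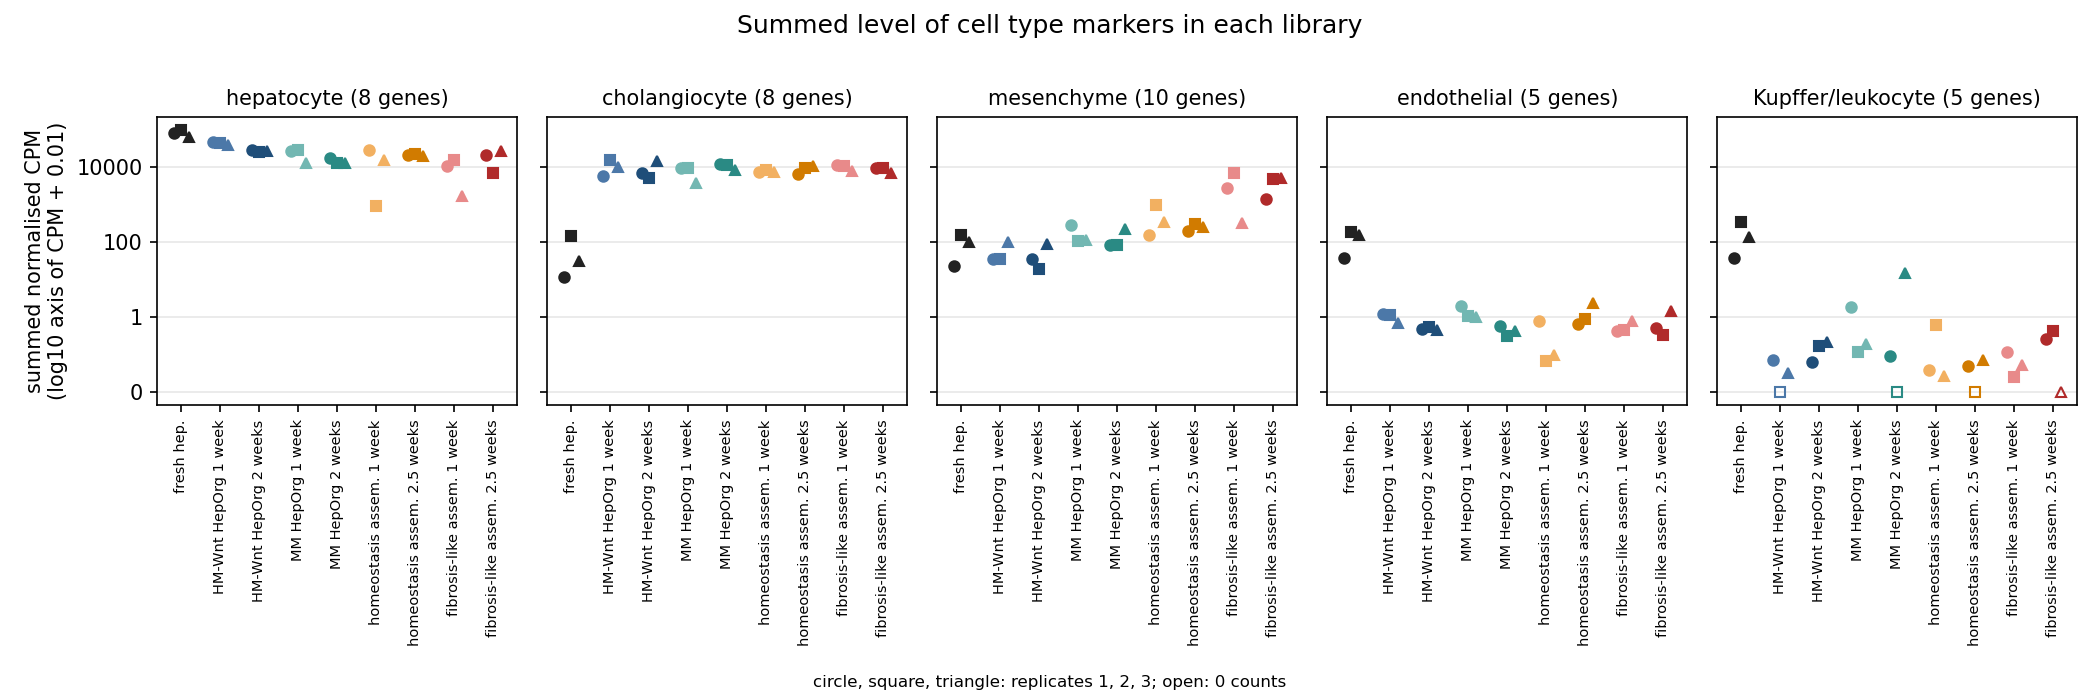
Summed normalised CPM (y axes, log10 of CPM + 0.01) in each library, by group. Panels show 8 hepatocyte, 8 cholangiocyte, 10 mesenchymal, 5 endothelial and 5 Kupffer markers. Endothelial sums in culture stay between 0.0560 and 2.30 CPM, whereas Kupffer sums are at 0 in 4 cultured libraries and reach 14.3 CPM in MM HepOrg 2 weeks replicate 3.

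A companion list of 22 other endothelial genes moved in the same direction, with exceptions. Of 20 tested genes (Emcn and Erg were too low), 17 (1 week) and 16 (2 weeks) were lower with HM-Wnt medium (24.8% and 25.7% of all genes). With MM, 16 were lower at each time (21.3% and 20%). Homeostasis assembloids had 9 and 7 lower at 1 and 2.5 weeks (3.84% and 1.78%), and fibrosis-like assembloids 10 and 8 (7.42% and 3.9%). The fits differ, so these counts do not compare HepOrgs with assembloids. None was higher by the test. The median log2 fold change of the list ranged from -5.54 to -4.09 over the 8 comparisons, against -0.14 to 0.17 for all genes. Listed genes that were scarce in culture, such as Ptprb in HepOrgs, passed the filter mainly through the fresh libraries. These counts and medians therefore describe the list and are not evidence of their own. Ptprb, an endothelial phosphatase, averaged 38.1 CPM in fresh libraries and 0.474 in cultures. Mrc1, the mannose receptor shared by sinusoidal endothelium and macrophages, averaged 30.5 and 1.03 CPM, with 18.1 CPM in MM HepOrg 2 weeks replicate 3. Both were lower in HM-Wnt at 1 week (Ptprb -8.47, Mrc1 -7.17).

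Esam and Eng kept substantial levels in culture. Esam, an adhesion molecule, averaged 9.53 CPM in fresh libraries and 11.4 in cultures, and its difference from fresh hepatocytes passed in none of the 8 comparisons (log2 fold changes from -3.52 to 1.63). Eng, the endoglin co-receptor, also made by mesenchymal cells, fell in HM-Wnt at 1 week (-5.62, adjusted p = 0.000994) and in MM at 1 week (-3.48, 0.0123). In fibrosis-like assembloids it reached 54.8, 75.7 and 104.7 CPM at 2.5 weeks, against 17.6, 94.8 and 69.0 in fresh libraries (0.35, adjusted p = 0.922). The summed mesenchymal markers of those assembloids were 1411, 4635 and 5122 CPM. Their part in the Eng level was not tested.

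Of the 21 further macrophage genes, 20 were tested against fresh hepatocytes. By edgeR, 16 were lower at each time in HM-Wnt HepOrgs (24.8% and 25.7% of all genes at 1 and 2 weeks), 9 and 5 in MM HepOrgs (21.3% and 20%), 10 and 7 in homeostasis assembloids at 1 and 2.5 weeks, and 11 and 8 in fibrosis-like assembloids. The 5 of 20 in MM HepOrgs at 2 weeks stood near the share of all genes. For homeostasis assembloids, the share of all genes that was lower was 3.84% at 1 week and 1.78% at 2.5 weeks. For fibrosis-like assembloids this share was 7.42% and then 3.9%. Because assembloids and HepOrgs were fitted separately, their counts of macrophage genes cannot be compared. Compared directly, MM against HM-Wnt called 0 of 13 tested macrophage genes at 1 week and 2 of 13 at 2 weeks, so the counts against fresh hepatocytes are not a test of the media. Itgam, which encodes CD11b, was listed at 0 in all 27 libraries and was not tested. Csf1r averaged 44.6 CPM in fresh libraries and 2.23 in cultures, and was lower in HM-Wnt at 1 week (-4.99, adjusted p = 0.00125). Mpeg1, a pore-forming protein of phagocytes, averaged 43.2 CPM in fresh libraries and 24.8 in cultures, and passed in none of the 8 comparisons (-2.21 to -0.07). Cd14, the lipopolysaccharide co-receptor, averaged 2.02 CPM in fresh libraries and 401.1 in cultures and was higher in all 8 comparisons (5.26 to 8.70). Hepatocytes are also known to make Cd14. Cd68, a lysosomal protein of phagocytes, was higher in the 4 HepOrg groups and was not called in the assembloids.

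The second comparison addressed the medium, with no replicate block in the fit. Same-numbered HepOrg libraries deviated together, and the values with a block, given further below, changed no marker call. Only Stab2 and Cdh5 passed the filter among the 12 HepOrg libraries, and neither was called between MM and HM-Wnt at 1 week (1.22% of 12989 genes lower and 1.76% higher in MM) or at 2 weeks (4.61% and 6.84%). DESeq2 and limma called none of them either. At unadjusted p under 0.05 there was 1 at each time, Stab2 at 1 week and Cdh5 at 2 weeks. Stab2 had 82, 35 and 19 counts in MM and 9, 6 and 8 in HM-Wnt at 1 week, with ranges that did not overlap (1.90 ± 0.79, adjusted p = 0.187). At 2 weeks it had 16, 3 and 6 against 7, 2 and 0 counts, and the ranges overlapped (1.12 ± 0.72, adjusted p = 0.341). Cdh5 went the other way. It had 9, 3 and 26 counts in MM and 23, 17 and 16 in HM-Wnt at 1 week (-0.99 ± 0.72, adjusted p = 0.434), and 0, 2 and 5 against 8, 19 and 13 at 2 weeks, without overlap (-1.81 ± 0.70, adjusted p = 0.113). The medium effect did not differ detectably between the times for Stab2 (-0.78, edgeR adjusted p = 0.907) or Cdh5 (-0.82, 0.754). No standard error is given for these differences. Of the companion genes, Fcgr2b (2.63, adjusted p = 0.00914), Cd14 (2.58, 0.00621) and the phagosomal metal transporter Slc11a1 (1.59, 0.0371) were higher in MM at 2 weeks. Fcgr2b, an Fc receptor of sinusoidal endothelium and macrophages, stood at 3.29, 4.32 and 9.70 CPM in MM and at 1.08, 0.578 and 1.11 in HM-Wnt.

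**Figure D5:**
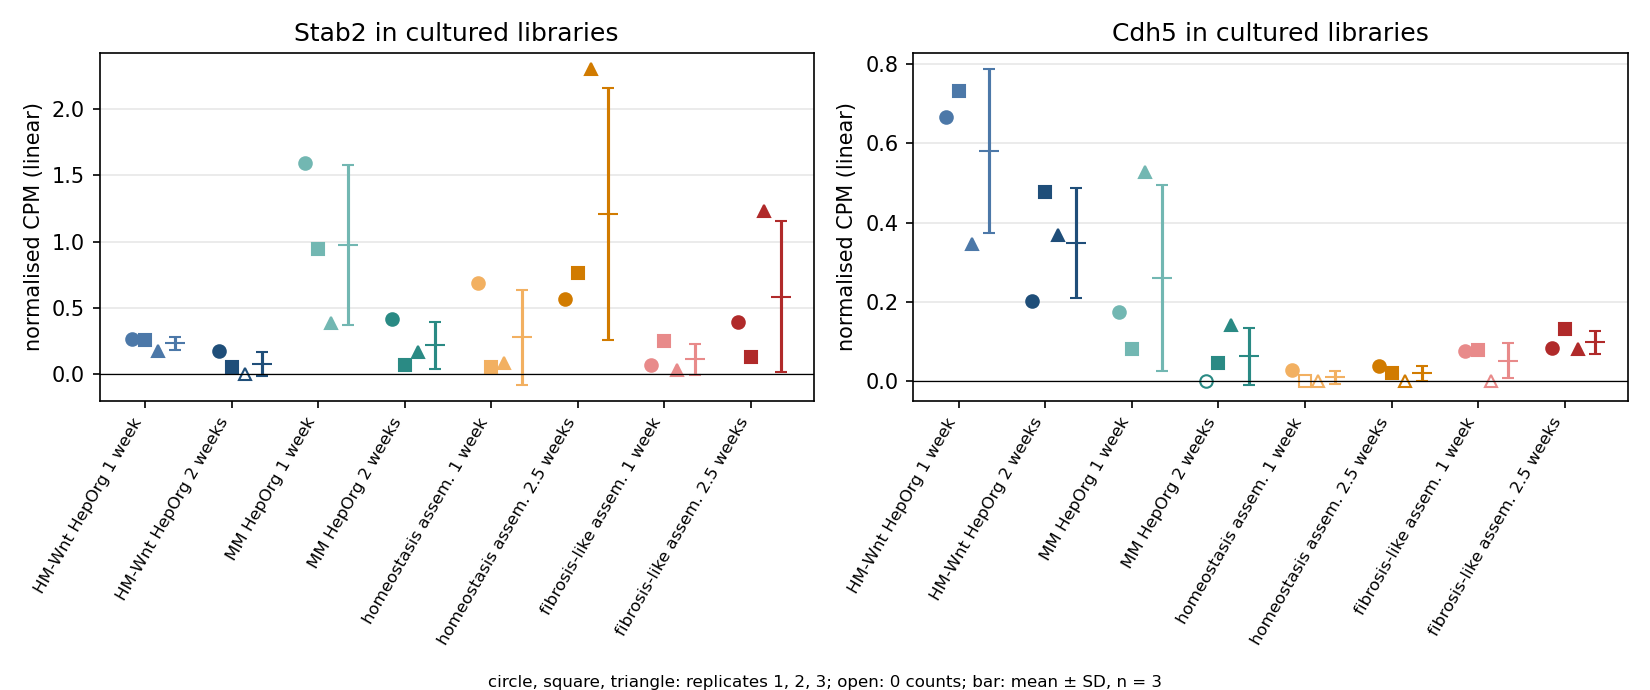
Normalised CPM (y axis) of Stab2 and Cdh5 in the 24 cultured libraries by group, with group means and SD. Stab2 is higher in MM than in HM-Wnt HepOrgs at 1 week without overlap (lowest MM library 0.385 CPM, highest HM-Wnt library 0.261), whereas Cdh5 is lower in MM at 2 weeks (highest MM library 0.141 CPM, lowest HM-Wnt library 0.202).

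The last comparisons varied the mesenchyme and the presence of the added cells. Stab2 alone was testable. Its level did not pass between fibrosis-like and homeostasis assembloids at 1 week (-1.11 ± 1.09, adjusted p = 0.702) or 2.5 weeks (-1.03 ± 1.22, adjusted p = 1). Without homeostasis assembloid 1 week replicate 1 the first value turned to 0.48 (adjusted p = 0.833). The change of this effect between the times was 0.09 (edgeR adjusted p = 1), and no standard error is given for it. Against MM HepOrgs at 1 week, Stab2 was at -1.70 ± 1.19 in homeostasis (adjusted p = 0.884) and at -2.81 ± 1.19 in fibrosis-like assembloids (adjusted p = 0.439), the latter without overlap between the groups (6, 16 and 2 against 82, 35 and 19 counts). These 4 comparisons called 0% of all genes by edgeR. At unadjusted p under 0.05 they had 2012, 944, 976 and 1512 genes, DESeq2 called 867, 273, 263 and 732, and limma 483, 0, 0 and 143. With only the 2 groups compared in the edgeR fit, 0, 738, 0 and 3436 genes were called. Stab2 was called in none of these fits that tested it. The median of all genes stood at 0.20 in fibrosis-like against homeostasis assembloids at 1 week and at -0.20 in homeostasis assembloids against MM HepOrgs.

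Across the 27 libraries, the marker whose log2 CPM followed Clec4f most closely was Clec4g (Pearson r = 0.997), and Stab2 and Ptprc were the pair least alike (0.584). Stab2 and Cdh5 reached 0.599. These values are descriptive, since the libraries share groups and many values are 0. Among 14326 genes, those most like Clec4f were Fam167b (r = 0.999), the capillary lipase anchor Gpihbp1 (0.998) and the class II antigen-presenting gene H2-Aa (0.992), which averaged 5.52, 11.3 and 20.7 CPM in fresh libraries and at most 0.00571 CPM in cultures. Those most like Stab2 were the organic anion transporter Slc22a7 (0.912), the esterase Iah1 (0.912) and the carboxylesterase Ces3a (0.908), which averaged 410.7, 146.2 and 3588 CPM in fresh libraries and 1.70, 42.9 and 2.56 CPM in cultures.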

How the data were processed

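RNA was prepared from polyadenylated transcripts with SMARTseq2 and Nextera libraries. Per the study's methods, the authors used STAR for alignment (GRCm39) and featureCounts for counting. Raw counts per gene and library were deposited together with gene lengths and TPM. The deposited TPM (transcripts-per-million, entered as another unit because 37 libraries share 1 column) used a length within 5% of the whole gene span for 80.8% of genes. Of 37 libraries, the 27 with a title that gives a group were used and 10 were not used here. 1 promoter sequence is not reported here. 2 rows that name reporters and not genes held 0.0069% of counts.

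Counts were fitted in R 4.3.3 with edgeR 4.0.16 (quasi-likelihood test, TMM, low counts removed by filterByExpr at 10 per library and 15 in total, prior count 2), with Benjamini-Hochberg adjustment over all genes of the fit and a threshold of 0.05. Fits held HepOrgs and fresh hepatocytes (15 libraries), assembloids and fresh hepatocytes (15), HepOrgs (12), assembloids (12), or the 1 week libraries in MM (9). DESeq2 1.42.0, limma 3.58.1 on log2(TPM + 1) and other settings were alternatives. Depth was at least 30289364 counts in every library. Intervals and floors of 3 counts cover counting error only. The statistics were tested on simulated data with independent libraries and with changes set only in well-counted genes. That test does not cover markers scarcely counted in culture or libraries that deviate together.

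Same-numbered libraries deviated together in the HepOrg fit (18 of 18 pairs with r above 0.1, median 0.207, against 2 of 36 pairs with different numbers). The pairing comes from the counts, as the labels give only the number. In the fit of HepOrgs with fresh hepatocytes, 19 of 30 same-numbered pairs were above 0.1, against 7 of 60 with different numbers. The reported values of all fits used no replicate block, which was an alternative setting only.

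The markers and gene lists were chosen with earlier results of these data known. Beside the 10 markers, the genes named are, of each companion list, the 3 with the highest mean CPM in fresh libraries and the 2 highest in cultures, up to 5 that passed in each comparison between cultures, and the 3 genes most like Stab2 and Clec4f. Other macrophage genes are named to describe MM HepOrg 2 weeks replicate 3 and MM HepOrg 1 week replicate 1, and Cd68 beside Cd14, and were chosen after their values were seen.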

Additional observations from a re-analysis of the deposited data

How the results depend on the processing

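Of 190 alternative counts of called markers over the 14 comparisons, 179 stayed within 1.5 times the reported count. This share says little, because the 6 comparisons between cultures had 1 or 2 testable markers and a count of 0 in every setting. The counts that left this range were all against fresh hepatocytes. They were 3 in homeostasis assembloids at 1 week, 6 at 2.5 weeks and 2 in fibrosis-like assembloids at 2.5 weeks. With the replicate block, homeostasis assembloids at 2.5 weeks against fresh hepatocytes had 4 markers called in place of 9. Kdr, Clec4f, Cd5l, Ptprc and Adgre1 were lost. The libraries of that fit share only a number (7 of 30 same-numbered pairs with r above 0.1). In the HepOrg fit, whose numbers pair the libraries, the block changed no call: Stab2 in MM against HM-Wnt was at 1.72 (edgeR adjusted p = 0.106) at 1 week and 1.16 (0.182) at 2 weeks, and Cdh5 at -1.15 (0.298) and -1.87 (0.0853). With only the 2 groups compared, homeostasis assembloids at 1 week against fresh hepatocytes had 0 markers and 0 genes called.

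With 1 library left out, the count against fresh hepatocytes was 10 to 10 in HM-Wnt HepOrgs at 1 week and 9 to 10 at 2 weeks, 8 to 10 and 7 to 10 in MM HepOrgs, 5 to 10 and 1 to 6 in homeostasis assembloids at 1 and 2.5 weeks, and 7 to 9 and 4 to 8 in fibrosis-like assembloids. In the 6 comparisons between cultures it was 0 to 0. The share of all genes called in these refits is not given here. All 1100 alternative fold changes against fresh hepatocytes were lower than 0. The markers passed the filter mainly through the fresh libraries, which the alternatives reused. This sign and the tallies that follow therefore describe the markers and are not evidence of their own. Clec4g passed in all but 1 of its 110, Pecam1 in 107, Cdh5 in 103, Clec4f in 100, Stab2 in 96, Cd5l in 88, Kdr in 85, Vsig4 in 84, Adgre1 in 80 and Ptprc in 65. DESeq2 called 8 of 10 markers in fibrosis-like assembloids at 1 week (Kdr and Cd5l lost) and 6 in MM HepOrgs at 2 weeks. limma on log2(TPM + 1) did not call Ptprc and Adgre1 in HM-Wnt HepOrgs. Of 104 fold changes between cultures, 1 reversed, Stab2 in fibrosis-like against homeostasis assembloids at 1 week (0.48 without homeostasis replicate 1, and -1.97 at the lowest, without fibrosis-like replicate 2). The cause was not tested. 2 alternatives that estimated the spread without a library that stood apart were chosen after seeing the data. For MM against HM-Wnt at 2 weeks and fibrosis-like against homeostasis at 1 week, the fit with only the 2 groups tested none of the markers and gave no value.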

Other observations

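Lymphocyte genes were scarce in all libraries. Of 12 listed, only Cd4, which Kupffer and sinusoidal cells can also express, passed the filter. It had a mean of 3.96 CPM in fresh hepatocytes (0.746, 4.64 and 6.48 CPM in replicates 1, 2 and 3) and 0.0119 CPM in the 24 cultured libraries, and was lower in all 8 comparisons with fresh hepatocytes (log2 fold changes from -6.71 to -5.47 by edgeR). Cd4 passed the filter through the fresh libraries, so this direction is descriptive and not evidence of its own. The B cell receptor genes Cd79a and Cd79b averaged 0.174 and 0.191 CPM in fresh libraries and 0.0136 and 0.0308 CPM in cultures, and Il2rb, an interleukin receptor chain, 0.161 and 0.0389 CPM. Cd3e, a chain of the T cell receptor complex, was at 0 in the fresh libraries.

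Homeostasis assembloid 1 week replicate 2 combined high values of 3 endothelial genes with an absence of most others. Eng was at 246.5 CPM in it, against 3.20 and 17.5 in replicates 1 and 3, Flt1, a receptor for vascular endothelial growth factor, at 31.4 CPM against 1.16 and 4.96, and Plvap, a diaphragm protein of fenestrated endothelium, at 18.7 CPM against 0.110 and 0.0995. Kdr, Clec4g, Pecam1 and Cdh5 had 0 counts in the same library, and Stab2 had 3. Its summed mesenchymal markers were at 980.5 CPM, against 149.9 and 331.5 CPM. These genes were chosen after their values were seen, and the part of mesenchymal cells in them was not tested.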
